A study of Mus musculus with 2 samples.

Results

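The genes described here were Ctnnb1, which encodes beta-catenin, the 4 TCF/LEF DNA-binding factors Lef1, Tcf7, Tcf7l1 and Tcf7l2, and the 4 Groucho co-repressors Tle1, Tle2, Tle3 and Tle4. They were chosen by symbol, with earlier results of these data known, and all 9 were among the 32285 genes listed for both libraries. The data were single-cell RNA counts from back skin and from the preputial gland (PG), a large sebaceous gland of rodents that is used as a model of skin sebaceous glands. Both tissues came from male C57BL/6 mice of 52 weeks with no treatment named, and the cells of 3 mice were pooled into 1 library per tissue. The pooled mice cannot be told apart, and neither can tissue and library.

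In Wnt signalling, beta-catenin that escapes its destruction complex enters the nucleus and binds TCF/LEF factors on DNA. Without beta-catenin the same factors can carry Groucho proteins, which recruit histone deacetylases and keep target genes silent. Lef1 and Tcf7 are mostly known as activating partners of beta-catenin, whereas Tcf7l1 and, depending on the cell, Tcf7l2 are known as repressors in skin stem cells. In the hair follicle (HF), strong Wnt signalling drives the matrix cells that build the hair shaft, and low signalling is associated with the sebocyte (SEB) lineage. RNA levels do not show how much beta-catenin protein is in the nucleus.

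Cells were barcodes with at least 500 genes, at least 1000 unique molecular identifiers (UMIs) and at most 10% mitochondrial UMIs. This left 8899 skin cells with a median of 2386 UMIs and 4699 PG cells with a median of 2729 UMIs. No cell barcode was shared, but the barcode lists of the libraries differed in length, so this is no check of mixing. Cells were sorted into classes by marker gates, so each class is "like" its name, and its edges are ranges of a score. In skin the epithelial gates held 3165 basal-like, 1673 suprabasal-like, 427 upper follicle-like, 559 bulge and outer root sheath-like (bulge-like), 408 inner root sheath-like (IRS-like), 440 hair matrix-like and 41 SEB-like cells. In PG they held 1914 basal-like, 463 upper follicle-like and 1037 SEB-like cells. Only 1 PG cell passed the hair matrix gate and 0 passed the bulge or IRS gates. A further 112 PG cells passed the suprabasal gate, but their leading genes were Cstdc5, S100a8, Krt16 and Krt6a and none of the suprabasal markers, so they were left without a name. Between 20 and 45 SEB-marker UMIs per 10000, around the cut of 30, lay 750 of the 2951 PG cells in the basal-like and SEB-like classes, and 117 of 440 hair matrix-like cells had only 2 or 3 UMIs of the gate's markers. The leading genes of the hair matrix-like class included Krt35, Krt31, Krt33a and Krt83, keratins of the hair shaft. Shh was found in 7.05% of its cells. The class thus also takes in shaft-forming cells and is not matrix alone.

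The upstream sequences of Lef1 and Tle4 are shown because these were the TCF/LEF and Groucho genes with the highest levels in hair matrix-like cells. Each run holds the 250 bases before the RefSeq start on GRCm38.p6, read 5′ to 3′ on the gene's strand, with the 5-base core CTTTG or its reverse complement CAAAG, letters shared by TCF/LEF sites, in capitals. The Lef1 run lies at chr3:131110047-131110296 on the plus strand and the Tle4 run at chr19:14598184-14598433 on the minus strand.
Lef1: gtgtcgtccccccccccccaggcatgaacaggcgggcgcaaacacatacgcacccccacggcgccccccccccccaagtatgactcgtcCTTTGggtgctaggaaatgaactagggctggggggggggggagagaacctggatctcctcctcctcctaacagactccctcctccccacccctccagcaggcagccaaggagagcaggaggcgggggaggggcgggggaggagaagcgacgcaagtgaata
Tle4: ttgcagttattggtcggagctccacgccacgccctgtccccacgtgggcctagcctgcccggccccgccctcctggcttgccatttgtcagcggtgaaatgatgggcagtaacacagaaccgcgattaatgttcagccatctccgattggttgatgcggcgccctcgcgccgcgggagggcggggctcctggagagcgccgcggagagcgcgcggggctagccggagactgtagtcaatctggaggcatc
The Lef1 run had 1 match, 161 bases before the start, and the Tle4 run had none. The core was found in this position in 3 of the 9 genes, namely Lef1, Tcf7l1 and Tcf7l2, and in 48.6% of all promoter windows in the table. The longer 7-base forms CTTTGAT and CTTTGAA, searched on both strands and over 50 further bases after the start, were in none of the 16 windows of the 9 genes and in 8.65% of all 32851 windows. These are matches of letters and not measured binding sites.

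On GRCm38, Ctnnb1 spans chr9:120929216-120960507 on the plus strand. Lef1 lies at chr3:131110471-131224356 (plus), Tcf7 at chr11:52252371-52283014 (minus), Tcf7l1 at chr6:72626378-72789254 (minus) and Tcf7l2 at chr19:55741820-55933654 (plus). Among the Groucho genes, Tle1 lies at chr4:72117142-72200919 (minus), Tle2 at chr10:81574561-81590845 (plus), Tle3 at chr9:61372366-61418497 (plus) and Tle4 at chr19:14448150-14598051 (minus). Small annotated genes overlap Ctnnb1, Lef1, Tcf7, Tcf7l1 and Tcf7l2 on the same strand, and how reads in those stretches were counted was not checked.

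Levels are given as CPM, the UMIs of a gene per 1000000 UMIs of all cells of a class. A 3′ library counts an mRNA once whatever its length, so CPM needs no length scaling between genes. Parentheses give exact 95% Poisson intervals for levels, and exact binomial ones for ratios and shares. With 1 library per tissue no test between samples was possible, and all intervals cover counting error only. A log2 ratio was counted as past 2-fold only for genes with at least 25 UMIs in both classes together and at least 10 CPM in either class.

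**Figure D1:**
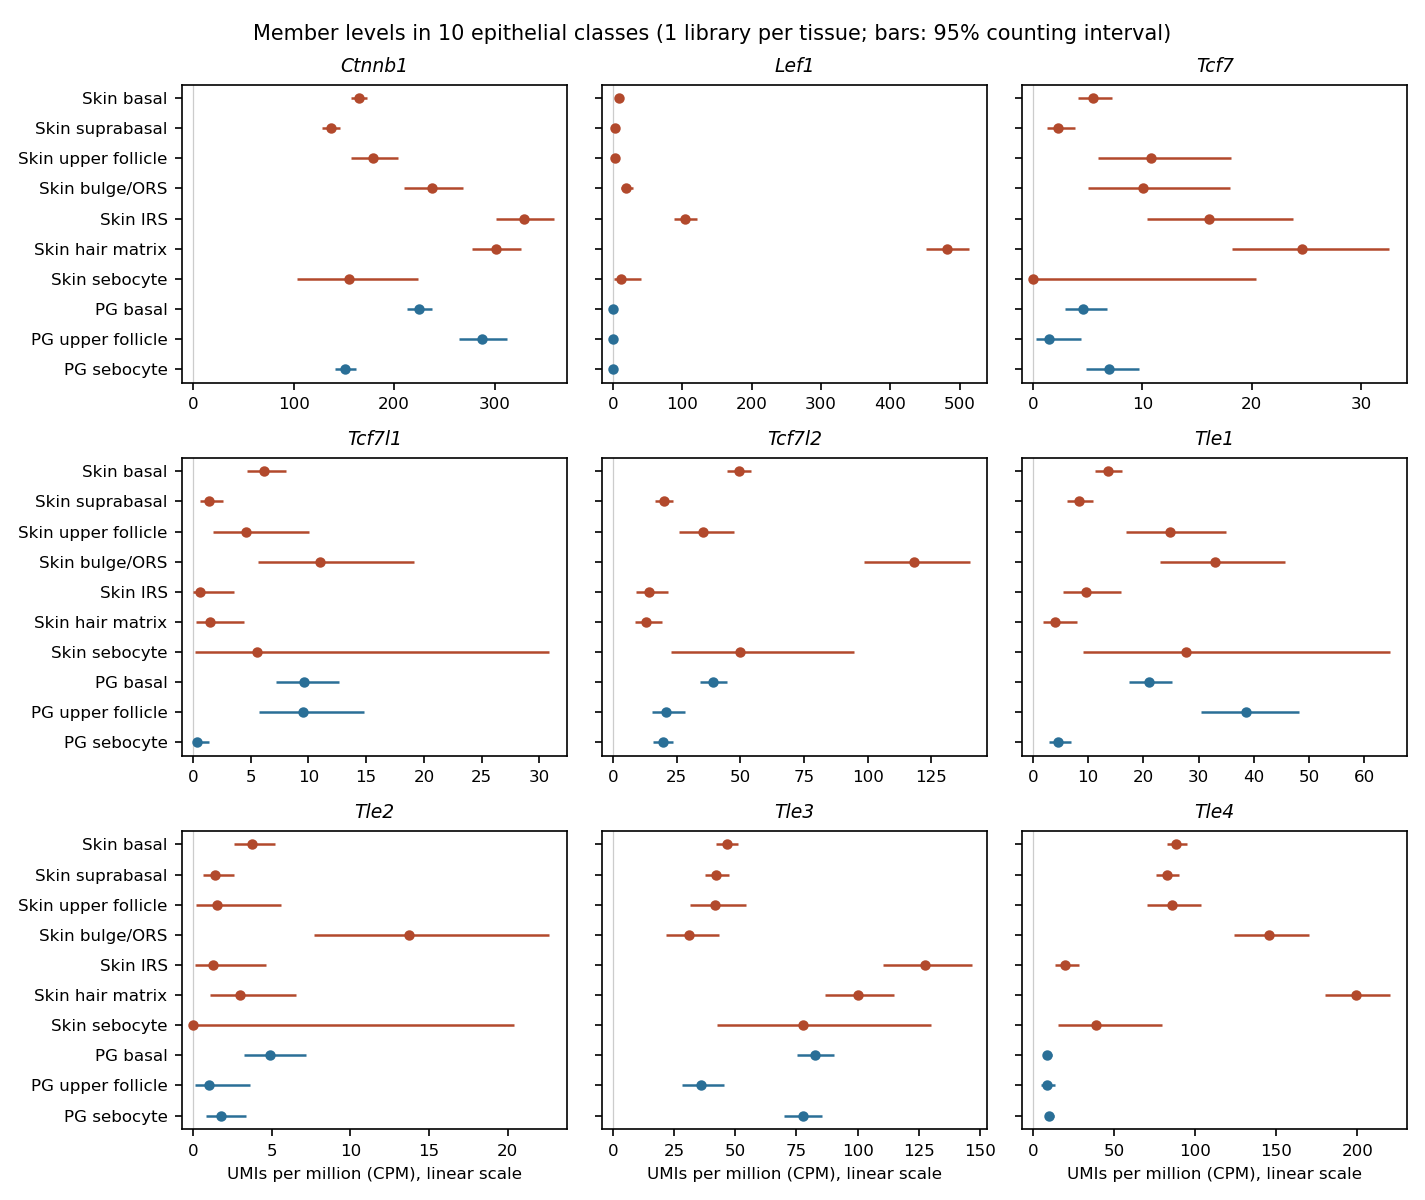
Level of each of the 9 genes in 10 epithelial classes, in CPM on linear axes that differ between panels, with exact 95% Poisson intervals as bars (red, back skin; blue, PG). Lef1 stands at 482 CPM in hair matrix-like cells and near 0 in the PG classes, Tle4 is lower in each PG class than in skin basal-like cells, and Ctnnb1 is above 100 CPM in all 10 classes.

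Ctnnb1 was the most widely detected of the 9 genes. Its level was 329 CPM (301 to 359) in IRS-like, 301 (278 to 326) in hair matrix-like, 238 (210 to 269) in bulge-like, 179 (157 to 204) in upper follicle-like, 165 (157 to 173) in basal-like and 137 (128 to 146) in suprabasal-like skin cells. In PG it was 287 (264 to 312) in upper follicle-like, 225 (213 to 238) in basal-like and 151 (141 to 163) in SEB-like cells. The 41 skin SEB-like cells held 28 Ctnnb1 UMIs, or 155 CPM (103 to 224), so their interval overlapped that of PG SEB-like cells. Thus the epithelial classes spanned less than 3-fold, with the follicle's IRS-like and matrix-like cells at the top and their intervals overlapping. Among classes of at least 50 cells, the order broke beyond counting error only between PG basal-like and skin upper follicle-like cells and between PG SEB-like and skin suprabasal-like cells. Skin endothelial-like cells, whose junctions also use beta-catenin, held 352 CPM (268 to 455), and myeloid-like cells held 78.6 in skin and 52.3 in PG. In the 43 PG endothelial-like cells the Ctnnb1 level was higher than in those of skin, at a log2 ratio of 1.03.

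Lef1 was concentrated in the hair-forming classes. It stood at 482 CPM (452 to 513) in hair matrix-like cells and 104 (88.3 to 121) in IRS-like cells. Bulge-like cells held 18.3 (11.2 to 28.3), basal-like cells 9.05 (7.19 to 11.2), suprabasal-like cells 3.38 (2.12 to 5.12) and upper follicle-like cells 3.09 (0.84 to 7.91). These steps separated hair matrix-like from IRS-like cells and both from all other classes, whereas suprabasal-like and upper follicle-like cells overlapped. At least 1 Lef1 UMI was seen in 70.0% of hair matrix-like cells, and in 35.9% after each cell was thinned to 1000 UMIs. In upper follicle-like cells the thinned share was 0.0839%. The median depth was 3896 UMIs in the former and 2463 in the latter. RNA free in the suspension, estimated from barcodes of few UMIs, would give 1.02 CPM of Lef1 to any skin cell, a value inside the interval of upper follicle-like cells and below that of basal-like cells. This takes free RNA as 4.62% of a cell's UMIs, the median of 5 genes that ranged from 3.44% to 19.9%, so the value is rough. A further 496 skin barcodes that entered no class held 313 of the 1640 Lef1 UMIs of skin, or 195 CPM (174 to 218), so part of the Lef1-high cells lay outside the gates.

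In PG, Lef1 was close to absent. All 4699 PG cells together held 3 Lef1 UMIs, of which 1 was in SEB-like cells and 0 in basal-like or upper follicle-like cells. A count of 0 in PG basal-like cells allows up to 0.55 CPM, taking 3 UMIs as the limit. The 41 skin SEB-like cells held 2 Lef1 UMIs among 12 TCF/LEF UMIs, too few to place their level.

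Tcf7 was low in every epithelial class. It was highest in hair matrix-like cells at 24.6 CPM (18.2 to 32.6), followed by IRS-like cells at 16.1 (10.4 to 23.8), upper follicle-like cells at 10.8 and bulge-like cells at 10.1. Basal-like cells held 5.52 (4.09 to 7.27). PG SEB-like cells held 6.95 (4.84 to 9.67) and PG basal-like cells 4.56 (2.95 to 6.73). Among these classes no neighbours in the order differed beyond counting error. The T cell-like cells of skin, in which Tcf7 is a well-known lineage factor, held 215 CPM (130 to 336) from 19 UMIs, which gives an outside check of the gate.

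Tcf7l1, the repressor of the follicle stem cell compartment, was scarce in the epithelium of both tissues. Its levels were 10.98 CPM (5.67 to 19.2) in bulge-like, 6.18 (4.67 to 8.02) in basal-like, 1.51 in hair matrix-like and 0.64 in IRS-like skin cells, the last 2 from 3 and 1 UMIs. PG basal-like cells held 9.66 (7.24 to 12.6), PG upper follicle-like cells 9.497 (5.72 to 14.8) and PG SEB-like cells 0.40 (0.048 to 1.44) from 2 UMIs. The last value was at the 0.33 CPM that free RNA would give. Fibroblast-like cells held 40.4 CPM in PG and 36.9 in skin, and skin endothelial-like cells 35.8, with overlapping intervals.

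Tcf7l2 was the main TCF of the bulge-like and basal-like cells. It reached 118 CPM (98.5 to 140) in bulge-like cells, above the 49.4 (44.9 to 54.2) of basal-like cells, 35.5 (26.0 to 47.4) of upper follicle-like cells and 19.8 (16.6 to 23.6) of suprabasal-like cells. The lowest skin epithelial values were 14.2 in IRS-like and 13.1 in hair matrix-like cells, from 22 and 26 UMIs. Their intervals overlapped that of suprabasal-like cells. PG basal-like cells held 39.2 (34.1 to 44.8), PG upper follicle-like cells 21.0 and PG SEB-like cells 19.5 (15.8 to 23.7). The 2 classes with the most Lef1, hair matrix-like and IRS-like cells, thus had low Tcf7l2 levels. Suprabasal-like cells, with 3.38 CPM of Lef1, could not be told apart from them in Tcf7l2. Over all classes the levels of both genes were not opposed. Bulge-like cells held more of each than basal-like cells. For Lef1 this rests on 20 UMIs and was reversed when cells were classed by clustering.

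The Groucho genes differed in which classes held them. Tle4 was highest in hair matrix-like cells at 199 CPM (180 to 220), then bulge-like cells at 145 (124 to 170). Basal-like, upper follicle-like and suprabasal-like skin cells overlapped at 88.5 (82.5 to 94.8), 85.8 (70.6 to 103) and 82.8 (75.9 to 90.1), and IRS-like cells held 19.98 (13.6 to 28.4). In PG the Tle4 level was 8.75 (6.45 to 11.6) in basal-like, 8.50 (4.95 to 13.6) in upper follicle-like and 9.74 (7.20 to 12.9) in SEB-like cells. The PG classes thus could not be told apart, and had levels below all skin epithelial classes but above the 0.63 CPM that free RNA would give.

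Tle3 ran differently from Tle4. Its highest level was in IRS-like cells at 128 CPM (110 to 147), followed by hair matrix-like cells at 100 (86.7 to 115). PG basal-like and PG SEB-like cells came next with 82.6 (75.1 to 90.5) and 77.5 (70.0 to 85.6), and skin basal-like cells held 46.4 (42.1 to 51.1). The lowest epithelial values, 36.0 in PG upper follicle-like and 31.1 in bulge-like cells, overlapped with those of skin upper follicle-like cells at 41.7.

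Tle1 was led by skin endothelial-like cells at 77.6 CPM, and among epithelial classes by PG upper follicle-like cells at 38.5 (30.4 to 48.1) and skin bulge-like cells at 32.9 (23.1 to 45.6), whose intervals overlapped. Basal-like cells held 21.0 (17.3 to 25.2) in PG and 13.6 (11.3 to 16.2) in skin, and the lowest levels were 4.57 in PG SEB-like and 4.02 in hair matrix-like cells. Tle2 did not exceed 13.7 (7.68 to 22.6), its level in bulge-like cells. It rested on 34 UMIs in skin basal-like and 27 in PG basal-like cells, too few to order the remaining classes.

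**Figure D2:**
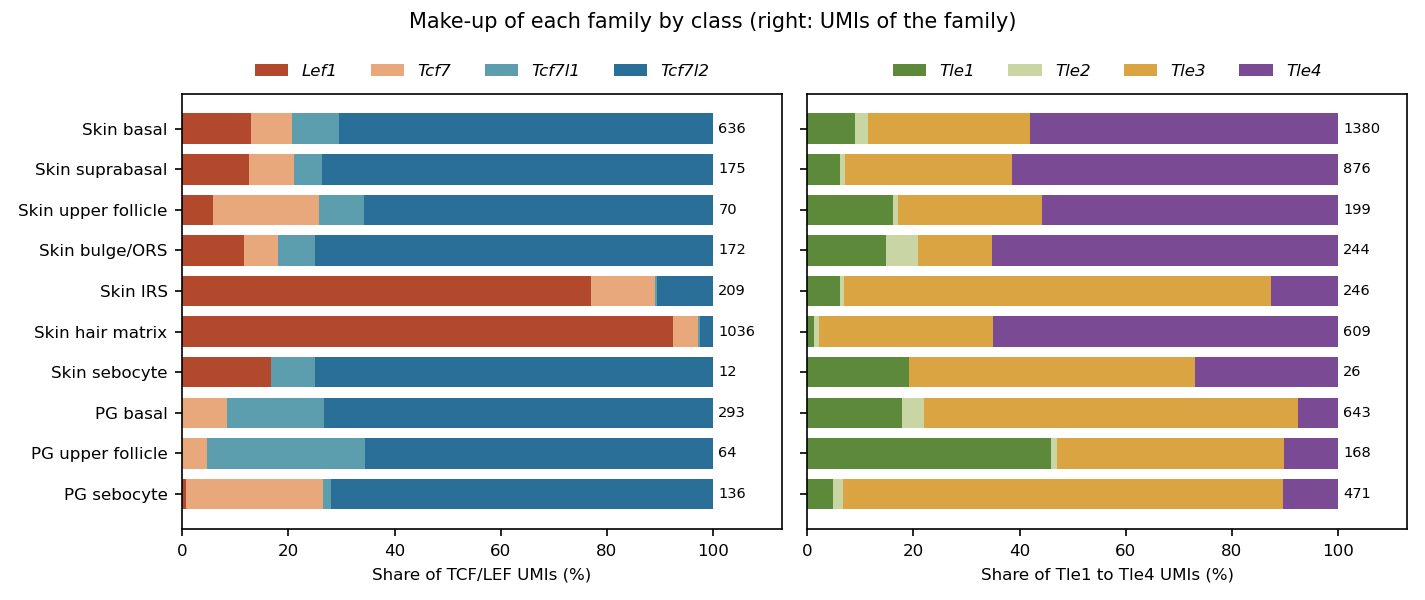
Share of the UMIs of Lef1, Tcf7, Tcf7l1 and Tcf7l2 (left) and of Tle1 to Tle4 (right) held by each gene in each epithelial class, in percent, with the number of family UMIs at the right of each bar. Lef1 fills most of the TCF/LEF bar in hair matrix-like and IRS-like cells, and Tle3 takes the place of Tle4 in IRS-like, PG basal-like and PG SEB-like cells. Tle3 also leads in skin SEB-like cells, from 26 Groucho UMIs.

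Within a class, the make-up of each family does not depend on the total UMIs. Of the TCF/LEF UMIs of hair matrix-like cells, 1007 of 1036 were from Lef1 or Tcf7, a share of 97.2% (96.0 to 98.1), and in IRS-like cells the share was 89.0% (83.9 to 92.9). It was 20.8% (17.7 to 24.1) in basal-like and 18.0% (12.6 to 24.6) in bulge-like cells. In PG it was 8.53% (5.60 to 12.3) in basal-like and 26.5% (19.3 to 34.7) in SEB-like cells, there almost all Tcf7. Tcf7l2 made up 70.4% of the TCF/LEF UMIs in skin basal-like cells, 73.4% in PG basal-like cells, 72.1% in PG SEB-like cells and, with 129 of 172 UMIs, a like share in bulge-like cells.

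The Groucho family split along another line. Tle4 made up 58.1% (55.5 to 60.7) of the Groucho UMIs in skin basal-like, 65.0% (61.1 to 68.8) in hair matrix-like and 65.2% (58.8 to 71.1) in bulge-like cells. Tle3 made up 80.5% (74.98 to 85.2) in IRS-like, 70.5% (66.8 to 74.0) in PG basal-like and 82.8% (79.1 to 86.1) in PG SEB-like cells. Skin SEB-like cells also held more Tle3 than Tle4, at 53.8% (33.4 to 73.4) and 26.9% (11.6 to 47.8), but from only 26 Groucho UMIs. In PG upper follicle-like cells Tle1 and Tle3 shared the family at 45.8% and 42.9%. Among the skin epithelial classes the one with the most Lef1 also had the most Groucho RNA, with a summed Tle1 to Tle4 level of 306 CPM (282 to 332) against 223 (196 to 253) in bulge-like, 159 (139 to 180) in IRS-like and 152 (144 to 160) in basal-like cells.

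The hair matrix-like cells were then compared with the basal-like cells of the same skin library. Of the 9 genes, 7 reached the limits, and 4 were at least 2-fold higher and 2 at least 2-fold lower. Over all 8654 genes that reached the limits, 32.0% were past 2-fold, with 15.3% higher and 16.7% lower, so shifts of this size were common between these classes. Lef1 was 53.3-fold higher, a log2 ratio of 5.74 (5.41 to 6.08), and 0.763% of the genes lay as far from 0. Tcf7 was higher by 2.16 (1.56 to 2.76), Tle4 by 1.17 (0.99 to 1.35) and Tle3 by 1.11 (0.86 to 1.35) on the log2 scale. Tcf7l2 had a log2 ratio of -1.92 (-2.55 to -1.35) and Tle1 one of -1.75 (-2.997 to -0.73). Ctnnb1, at 0.87 (0.73 to 1.01), was 1.83-fold higher and did not pass 2-fold. The intervals of Tle3 and Tle4 include the limit, so their place on either side of it is not firm. Cycling markers summed to 935 CPM in hair matrix-like and 586 CPM in basal-like cells. Cycling cells, those with at least 3 cycling markers detected, were then left out. Hair matrix-like cells held 490 CPM of Lef1 and basal-like cells 8.13. In the same order Tcf7 was 25.9 and 5.33, Tle4 219 and 92.2, Tle3 91.7 and 45.6 and Ctnnb1 270 and 161 CPM. Tcf7l2, at 11.3 and 50.03, and Tle1, at 4.65 and 14.1, were again lower in hair matrix-like cells. Tle2, under 10 CPM in both classes, went from a log2 ratio of -0.31 to 0.018. The log2 ratio was 2.89 (2.75 to 3.04) for the summed TCF/LEF genes and 1.01 (0.87 to 1.15) for the summed Groucho genes.

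**Figure D3:**
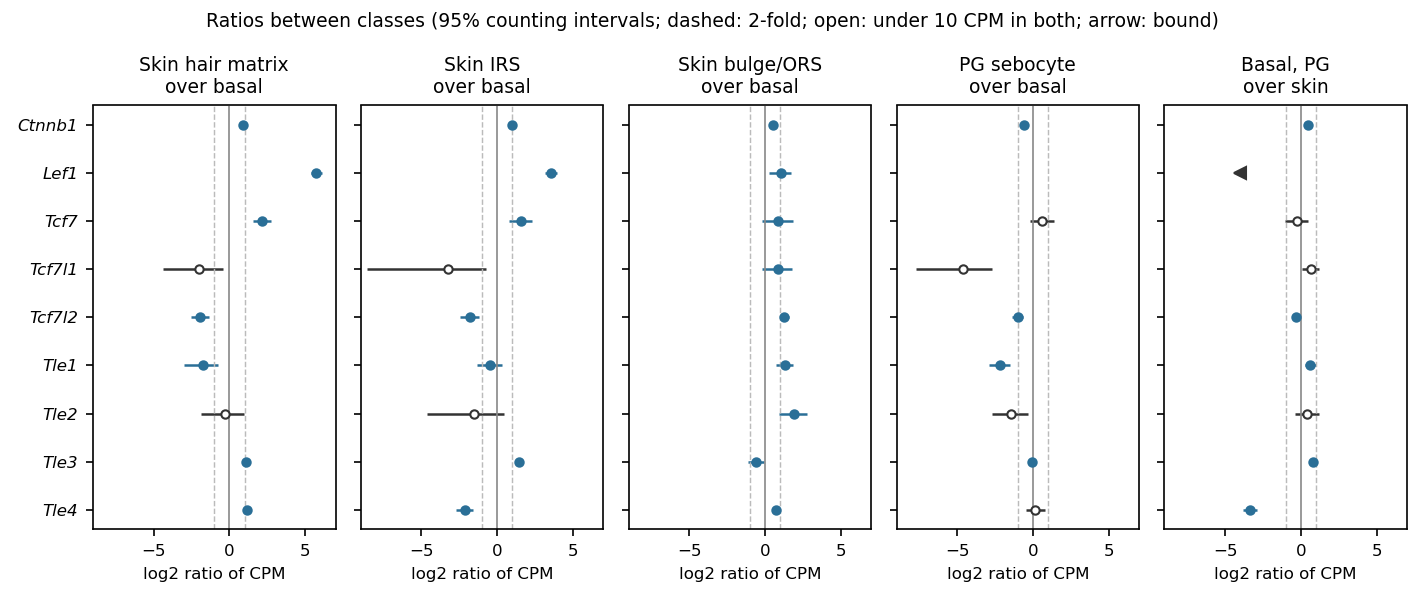
Log2 ratio of CPM with exact 95% binomial intervals for the 9 genes in 5 comparisons, where filled points reached the limits, open points were under 10 CPM in both classes, and the arrow is a bound. Genes with fewer than 25 UMIs in a pair are not drawn. Lef1 lies furthest right in hair matrix-like over basal-like cells at 5.74, and Tle4 lies at -3.34 in PG over skin basal-like cells.

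IRS-like cells carried the Lef1 and Tcf7l2 differences but not the Tle4 one. Against basal-like cells 7 genes reached the limits, with 3 at least 2-fold higher and 2 at least 2-fold lower, beside 31.6% of all 8606 genes past 2-fold (15.1% higher and 16.5% lower). Lef1 was higher by 3.52 (3.13 to 3.92), Tcf7 by 1.55 (0.79 to 2.27) and Tle3 by 1.46 (1.21 to 1.71) on the log2 scale. Tcf7l2 lay at -1.80 (-2.49 to -1.19) and Tle4 at -2.15 (-2.71 to -1.63). Ctnnb1 lay at 0.998 (0.85 to 1.14), just under the limit. With Tle3 higher and Tle4 lower, the summed Groucho genes had a log2 ratio of 0.06 (-0.14 to 0.26).

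Set against each other, hair matrix-like and IRS-like cells differed past 2-fold in Lef1 and Tle4 only, among the 6 genes that reached the limits. Both were higher in hair matrix-like cells, as were 7.35% of 8141 genes. The log2 ratio was 2.22 (1.97 to 2.47) for Lef1 and 3.32 (2.79 to 3.89) for Tle4, and 1.66% of genes lay as far from 0 as Tle4. Ctnnb1 differed by -0.13 (-0.30 to 0.04), an interval that includes 0 and leaves at most a small difference, and Tle3 by -0.35 (-0.64 to -0.06).

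Hair matrix-like cells with many UMIs of hair keratins, the proteins of the hair shaft, were also set against those with few. Of the 440 cells 209 were above the cut and 231 below it, with 58 near it. Tle3 was 151 CPM in the cells with few hair keratins and 52.0 in those with many, a log2 ratio of -1.54 (-2.02 to -1.07), and was the 1 gene past 2-fold of the 6 that reached the limits, beside 17.3% of 6937 genes at least 2-fold lower. Ctnnb1 was 375 and 232 CPM, at -0.69 (-0.94 to -0.45). Lef1 ran the other way, from 421 to 540 CPM at 0.36 (0.17 to 0.55), and so did Tle4, from 162 to 234 CPM at 0.53 (0.24 to 0.83). Thus Lef1 was high at both ends of the class. Other markers moved with the split: from few to many hair keratins, cycling markers summed to 1777 and 134 CPM, IRS markers to 993 and 248, bulge markers to 862 and 112.8 and fibroblast markers to 455 and 42.2, and their part in these values was not tested. Cycling cells, with at least 3 cycling markers detected, held 398 CPM of Ctnnb1 against 270 in the others, and 137 CPM of Tle4 against 219. Tle3 was 126 (96.7 to 162) in cycling cells and 91.7 (77.0 to 108) in the others. For Lef1 the values were 458 (399 to 522) and 490 (455 to 526). The intervals of Tle3 and of Lef1 overlap.

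Bulge-like cells, which hold the follicle stem cells, held more Tcf7l2, Tle1 and Tle2 than basal-like cells. All 9 genes reached the limits and 4 were at least 2-fold higher, beside 9.59% of 8589 genes. These were Tle2 at a log2 ratio of 1.87 (0.89 to 2.79), Tle1 at 1.28 (0.70 to 1.83), Tcf7l2 at 1.26 (0.96 to 1.54) and Lef1 at 1.02 (0.23 to 1.74). The Lef1 ratio rests on 20 UMIs in bulge-like cells and turned to -0.38 when cells were classed by clustering instead of gates. Tle4 at 0.72 (0.46 to 0.96) and Ctnnb1 at 0.53 (0.33 to 0.72) were higher without reaching 2-fold, and Tle3 lay at -0.58 (-1.13 to -0.07), but at 0.11 among cells of at least 1000 genes and 2000 UMIs.

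In suprabasal-like cells Tcf7l2 was lower than in basal-like cells. Of the 5 genes that reached the limits only Tcf7l2 was past 2-fold, at -1.32 (-1.61 to -1.03), beside 12.9% of 8164 genes at least 2-fold lower. Lef1, Tcf7, Tcf7l1 and Tle2 were under 10 CPM in both classes, with log2 ratios of -1.42, -1.26, -2.16 and -1.44. Tle3 at -0.13 (-0.36 to 0.09) and Tle4 at -0.10 (-0.26 to 0.06) had intervals that include 0. In upper follicle-like against basal-like skin cells, 0 of 6 genes passed 2-fold, beside 19.2% of 8213 genes, and Tcf7 at 0.97 (0.00 to 1.85) and Tle1 at 0.87 (0.26 to 1.44) lay furthest from 0.

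In PG the question was which factors differed between basal-like and SEB-like cells. Only 4 of the 9 genes reached the limits, and 2 were at least 2-fold lower in SEB-like cells, beside 12.2% of 8222 genes. Tle1 had 115 UMIs in basal-like and 23 in SEB-like cells, a log2 ratio of -2.20 (-2.91 to -1.54), and 5.16% of genes lay as far from 0. Tcf7l2 lay at the limit with -1.01 (-1.37 to -0.66), and moved between -0.61 with a looser and -1.42 with a stricter SEB gate. Ctnnb1 lay at -0.57 (-0.70 to -0.44) and Tle3 at -0.09 (-0.29 to 0.11). Tcf7l1, under 10 CPM in both classes, had 53 UMIs in the former and 2 in the latter, at -4.60 (-7.69 to -2.68). Tcf7 at 0.61 (-0.17 to 1.41) and Tle4 at 0.15 (-0.45 to 0.76) had intervals that include 0. The sums lay at -0.98 (-1.29 to -0.68) for the TCF/LEF genes and -0.32 (-0.50 to -0.15) for the Groucho genes. Contractile markers summed to 281 CPM in PG basal-like and 23.4 in PG SEB-like cells, and cycling markers to 722 and 141. With cycling cells left out, 1 gene instead of 2 was past 2-fold. Over all settings tried, that one included, the log2 ratio of Tle1 lay between -2.50 and -1.96. The part of the contractile markers in the ratios was not tested.

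**Figure D4:**
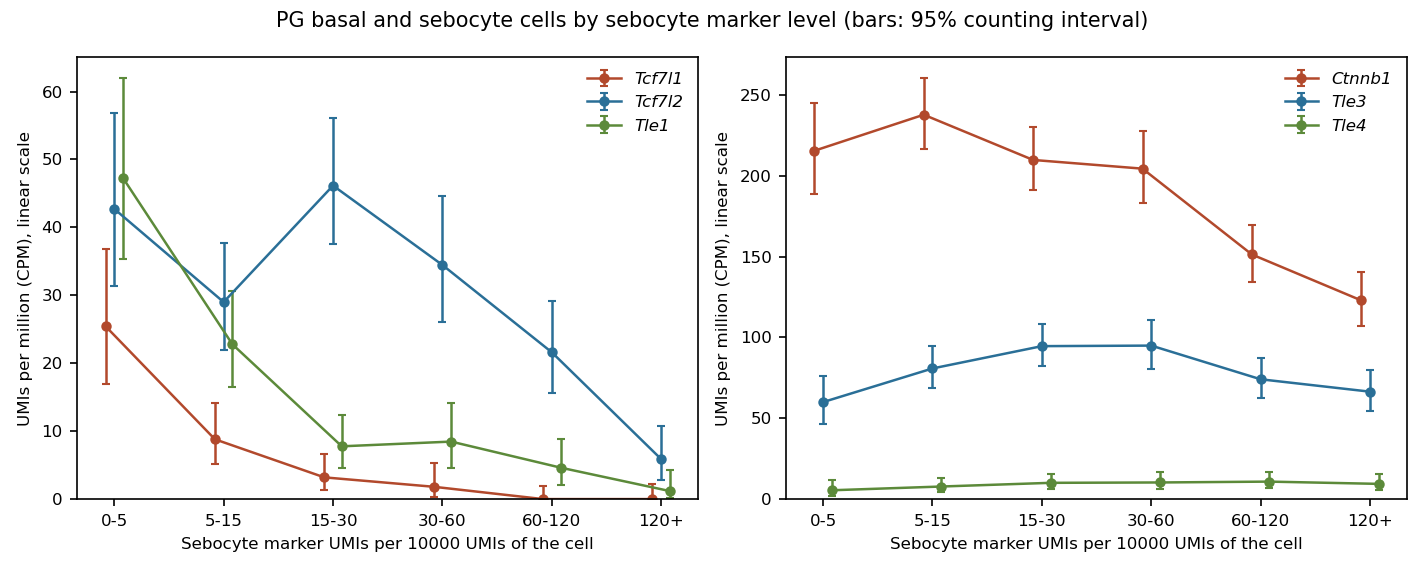
Levels in CPM, with exact 95% Poisson intervals, of Tcf7l1, Tcf7l2 and Tle1 (left) and Ctnnb1, Tle3 and Tle4 (right) in PG basal-like and SEB-like cells split into 6 ranges of SEB-marker UMIs per 10000. Tcf7l1 and Tle1 are highest in the lowest range and Tcf7l2 lowest in the highest range, while Tle3 lies between 59.99 and 94.9 CPM throughout.

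The same cells were split into 6 ranges of the SEB marker score, which are ranges and not cell types. Tcf7l1 was 25.4 CPM (16.9 to 36.8) below a score of 5, then 8.80, 3.20 and 1.81, and no UMI was seen in the 2 ranges above 60. Tle1 took the values 47.3 (35.3 to 62.0), 22.8, 7.77, 8.46, 4.63 and 1.18 (0.14 to 4.25). Both were thus also low between 15 and 30, below the cut of the SEB gate. Tcf7l2 showed no such step in the first 4 ranges, with 42.7, 29.0, 46.1 and 34.5 CPM. In the last 2 it was 21.6 and 5.88 (2.82 to 10.8). Ctnnb1 was 215, 238, 210 and 204 CPM in the first 4 ranges, and 151 (134 to 170) and 123 (107 to 141) in the last 2. Tle3 was lowest at both ends, with 59.99 (46.4 to 76.3) and 66.4 (54.7 to 79.9), and 94.9 (80.7 to 111) between 30 and 60. SEB markers also summed to 2548 CPM in PG fibroblast-like cells, so a score in the lower ranges is not particular to the SEB lineage. Over the ranges, basal markers went from 66.6 to 10.9 UMIs per 10000 and median depth from 2533 to 6517 UMIs. The share of cycling cells went from 10.4% to 1.13%. The part of these differences in the values was not tested.

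Within the SEB gate, 400 cells carried at least 20 basal-marker UMIs per 10000 and 637 did not. Tcf7l2 was lower in the keratin-low cells, with 14.7 against 30.1 CPM at a log2 ratio of -1.04 (-1.64 to -0.43), and it was the 1 gene past 2-fold of the 4 that reached the limits, beside 8.26% of 7797 genes at least 2-fold lower. Its interval includes the limit, 341 of the 1037 cells lay near the cut, and cycling markers summed to 50.4 CPM in keratin-low and 343 CPM in keratin-positive cells, whose part was not tested. Ctnnb1 was 131 against 197 CPM at -0.59 (-0.80 to -0.37). PG upper follicle-like cells were led by Cst6 and Defb6, but the suprabasal markers Krtdap and Sbsn were also among their leading genes. Upper follicle markers summed to 81752 CPM in them. Suprabasal markers summed to 12944 CPM, against 10750 in upper follicle-like skin cells, and their part was not tested. Against PG basal-like cells they differed past 2-fold in Tle3 alone of 4 genes, at -1.20 (-1.58 to -0.84), beside 20.1% of 8293 genes at least 2-fold lower. There Tle1 was higher by 0.88 (0.44 to 1.31) and Ctnnb1 by 0.35 (0.21 to 0.50) on the log2 scale.

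Between the libraries, the same gates were compared in PG and skin. In basal-like cells 5 genes reached the limits, and 1 was at least 2-fold lower in PG, beside 14.4% of 8725 genes. This was Tle4, with 48 UMIs in PG and 802 in skin at a log2 ratio of -3.34 (-3.79 to -2.92), and 4.92% of genes lay as far from 0. Tle4 was found in 20.7% of skin and 2.51% of PG basal-like cells, and in 8.86% and 0.941% after thinning, with median depths of 2503 and 2655 UMIs. Lef1 had 82 UMIs in skin and 0 in PG. With the PG count set to the limit of 3 UMIs it was 16.5-fold lower in PG, leaving out the counting error of skin. Its 9.05 CPM in skin stayed under the 10 CPM limit. Tle3 at 0.83 (0.64 to 1.03), Tle1 at 0.63 (0.25 to 1.01) and Ctnnb1 at 0.45 (0.34 to 0.56) were higher in PG without reaching 2-fold, and Tcf7l2 lay at -0.33 (-0.58 to -0.10). The gated cells themselves differed: the 8 basal markers summed to 5716 CPM in PG and 21490 CPM in skin. In the same order the 11 SEB markers summed to 1454 and 178 CPM and the T cell markers to 9.48 and 35.4. Hair matrix markers summed to 2.01 and 79.97 CPM, IRS markers to 4.92 and 107, bulge markers to 148 and 385 and contractile markers to 281 and 71.4. The part of these differences in the ratios was not tested.

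The Tle4 difference had the same size in upper follicle-like cells, at -3.34 (-4.17 to -2.59) from 17 and 111 UMIs. Tle4 was the 1 gene past 2-fold of the 5 that reached the limits there, beside 18.4% of 7807 genes at least 2-fold lower. Fibroblast-like cells had a smaller Tle4 difference, with 19.2 CPM in PG and 34.1 in skin at -0.83 (-1.65 to -0.07). In myeloid-like cells Tle4 was 25.04 CPM in PG and 61.9 in skin at -1.31 (-2.47 to -0.24), from 11 and 26 UMIs, and was the 1 gene past 2-fold of the 3 that reached the limits, beside 16.7% of 3854 genes at least 2-fold lower. Markers of the myeloid gate differed too, with Cd207 at 79.7 CPM in PG and 734 in skin and Cd74 at 28873 and 10320. Their part in the Tle4 value was not tested. Lef1 held 29 UMIs in skin fibroblast-like cells and 0 in those of PG. With the PG count set to the limit of 3 UMIs this is 5.35-fold lower, leaving out the counting error of skin. Lef1 was the 1 gene of 7 past 2-fold, beside 9.61% of 8591 genes at least 2-fold lower. The fibroblast-like cells differed as well, with Col1a1 at 1927 CPM in PG and 6523 in skin and Dcn at 15717 and 10352. SEB markers summed to 2548 and 620 CPM in them. The part of these differences in the Lef1 and Tle4 values was not tested. For SEB-like cells the skin library held only 41 cells with 12 TCF/LEF and 26 Groucho UMIs, and no cluster took that name when cells were classed by Leiden clustering. Tle4 was 38.8 CPM (15.6 to 79.8) in them from 7 UMIs, Tle1 27.7 (8.99 to 64.6) from 5 and Tcf7l2 49.8 (22.8 to 94.6) from 9. The PG values were 9.74, 4.57 and 19.5, the Tcf7l2 intervals overlapped, and Tle3 was 77.5 in both. The share of all genes past 2-fold is not given for this pair. The SEB markers summed to 12383 CPM in skin and 11768 in PG SEB-like cells. Single markers differed, such as Acsbg1 at 559 and 17.1 CPM and Mgst1 at 2923 and 6445. Basal markers summed to 3106 CPM in skin and 1868 in PG SEB-like cells. Keratin-positive cells, split as within the PG gate, were 25 of the 41 in skin and 400 of the 1037 in PG. In skin they held all 5 Tle1 UMIs, 5 of the 7 of Tle4 and 4 of the 9 of Tcf7l2. In PG they held 14 of the 23 Tle1 UMIs. The part of these differences in the values of this pair was not tested. The libraries were made with barcode lists of different length, 6794880 and 737280, and the part of that difference in the results was not tested.

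Other genes of the pathway were followed with a list of 66 genes that does not include the 9. In hair matrix-like against basal-like cells 56 reached the limits, of which 5 were past 2-fold higher and 4 lower, fewer than the 15.3% and 16.7% of all genes would give, and their median log2 ratio of 0.19 lay beside 0.20 for all genes. The highest were the feedback inhibitors Notum, with 35 and 2 UMIs at 6.32 (4.36 to 9.42), and Nkd1, with 42 and 6 UMIs at 4.996 (3.76 to 6.52), followed by Nlk, a kinase that acts on TCF/LEF factors, at 1.55 (0.86 to 2.21). The lowest were the R-spondin receptor Lgr6 at -2.80 (-3.76 to -1.98), Sox9 at -2.77 (-3.30 to -2.28) and the beta-catenin partner Pygo1 at -2.19 (-4.10 to -0.78), the last from 4 and 83 UMIs and under 10 CPM in both. Notum and Nkd1 are known beta-catenin targets, and their levels, 17.6 and 21.1 CPM, were far below that of Lef1 in the same cells.

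In PG SEB-like against basal-like cells 48 pathway genes reached the limits, with 0 past 2-fold higher and 4 lower, beside 6.59% and 12.2% of all genes, and their median of -0.43 lay beside -0.11 for all genes. The highest were Cby1, an antagonist of beta-catenin, at 0.83 (0.34 to 1.32), the target and scaffold Axin2 at 0.74 (0.02 to 1.48) and Nlk at 0.67 (-0.09 to 1.45), the last 2 under 10 CPM in both classes. The lowest were P-cadherin, Cdh3, at -2.88 (-3.40 to -2.40) and the Wnt receptors Fzd1 at -1.79 (-2.54 to -1.10) and Fzd7 at -1.48 (-1.86 to -1.12). Axin2, a widely used readout of the pathway, stood at 58.3 CPM in hair matrix-like and 34.2 in basal-like skin cells, and at 5.10 in PG basal-like and 8.54 in PG SEB-like cells. Between the basal-like cells of PG and skin, 7 of 54 pathway genes were past 2-fold higher in PG and 7 lower, close to the 16.2% and 14.4% of all genes. Of its target genes 7 of 11 reached the limits, with 1 higher and 3 lower and a median of -0.74 beside 0.08 for all genes. Chosen after their values were seen, the targets Ccnd1 and Lgr5 lay at -6.31 (-7.18 to -5.56) and -4.83 (-7.12 to -3.25) and the target Myc at 1.83 (1.60 to 2.06).

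The genes whose levels ran most like each of the 9 were sought over the 17 classes of at least 50 cells in both libraries, by Pearson's r of log2(CPM + 5) among 11222 genes. These are descriptions, since classes of a library share its depth and free RNA. For Lef1 the closest were the gate marker Msx2 at 0.92 and the hair genes S100a3 and Krt75, both at 0.91. For Ctnnb1 they were Arhgap32 at 0.87, Frg1 at 0.85 and Tspan7 at 0.85. For Tcf7, whose pattern rests on the T cell-like class, they were Ap4m1 at 0.93, Gm26930 at 0.92 and Uty at 0.91. Tcf7l1 ran with Lamb2 at 0.96, Cavin1 at 0.94 and Tmem158 at 0.93. Tcf7l2 ran with Cpne8 at 0.92 and Ccn1 at 0.88, Tle1 with Synpo and Pald1, both at 0.83, and Tle3 with Hnrnpk at 0.95, Nup188 at 0.94 and Heatr1 at 0.94. Tle4 ran with Odc1 at 0.89, Gm26724 at 0.88 and 2900060B14Rik at 0.85. Tle2 stayed under the 20 CPM that was asked for. Among the 9 themselves the highest r was 0.75, between Tcf7l1 and Tcf7l2, and Lef1 and Tle4 reached 0.42.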

How the data were processed

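Single-cell RNA of back skin and PG was measured in 1 library each by a 10x 3′ method. The barcode lists differed in length, 6794880 for skin and 737280 for PG. Per the labels, the authors aligned reads to mm10 with Cell Ranger and deposited unfiltered matrices of UMI counts per gene and barcode. The skin matrix held 37675226 UMIs and the PG matrix 26288071, and the filtered cells held 27407186 and 15270076. Counts were used as deposited.

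Cells were classed by summed UMIs of marker lists per 10000 UMIs of the cell. The members, marker lists and pathway list were chosen with earlier results of these data known, and the cuts of the gates were set after the marker distributions were seen. No doublet caller was used in the main analysis. Barcodes that passed the gates of 2 lineages (353 in skin, 110 in PG) were set aside, and 496 and 192 barcodes entered no class. Classes of fewer than 20 cells were left out. UMIs were summed per class, and since each tissue had 1 library no test between samples was made. Intervals are exact at 95%. They and the limit of 3 UMIs for a count of 0 cover counting error only. Free RNA was taken from barcodes of 5 to 50 UMIs and scaled, by the median over 5 epithelial genes counted in fibroblast-like, myeloid-like and endothelial-like cells, to 4.62% of the UMIs of a skin cell and 6.22% of those of a PG cell. The single genes ranged from 3.44% to 19.9% in skin and from 2.13% to 13.4% in PG. Thinned shares are exact expectations at 1000 UMIs for cells of at least that depth. The ratios, their intervals and the 2-fold cut were checked on simulated Poisson counts of the higher-expressed genes, with no added spread between cells. That check did not cover the UMI and CPM limits or the limit for a count of 0.

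The text names all 9 genes, the 3 highest and 3 lowest ratios among pathway genes of at least 25 UMIs in hair matrix-like over basal-like cells and in PG SEB-like over basal-like cells, and the 3 genes most like each member with at least 20 CPM, of which some are not reported here. Alternatives changed the cell limits, the gate cuts, doublet removal, classing by Leiden clusters with the 9 genes left out, averaging over cells, free RNA, cycling cells, the CPM total and the fold. Promoter windows came from a RefSeq table of GRCm38.p6 and gene positions from the GENCODE annotation of GRCm38. The tools were Python 3.11.15, numpy 2.4.6, scipy 1.17.1, pandas 2.3.3, scanpy 1.11.5, scikit-learn 1.9.0, leidenalg 0.10.2 and matplotlib 3.10.9.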

Additional observations from a re-analysis of the deposited data

Results flagged for a closer look

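Lef1 stood at 195 CPM (174 to 218) in the 496 back skin barcodes that passed the cell limits but entered no class, and which no comparison of the report uses. They held 313 of the 1640 Lef1 UMIs of skin cells. This level lay above the 9.05 CPM of basal-like cells and below the 482 CPM of hair matrix-like cells.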

How the results depend on the processing

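The 13 main results gave 148 values under the alternatives, of which 127 stayed within their counting interval or, for counts, within 1.5 times, 21 moved and 0 changed sign. The log2 ratio of Lef1 in hair matrix-like over basal-like cells was 6.18 with at most 5% mitochondrial UMIs, 6.09 with a stricter and 5.18 with a looser gate, and 5.32 with Leiden clusters. The clusters also gave a summed Groucho ratio of 0.72, which was 1.15 as a mean over cells, and a Lef1 and Tcf7 share of 95.5%. In PG, the SEB-like over basal-like ratio of Ctnnb1 was -0.72 with a stricter gate, and the members past 2-fold were 1 instead of 2 with an upper UMI limit, at most 5% mitochondrial UMIs, a mean over cells, cycling cells left out, or 3-fold as the limit. Between basal-like cells of PG and skin, Tcf7l2 was -0.043 with at least 1000 genes and 2000 UMIs and -0.59 as a mean over cells, Ctnnb1 was 0.57 on CPM without mitochondrial and ribosomal protein genes, and the members past 2-fold were 2 instead of 1 with a looser gate, Leiden clusters, a mean over cells or that CPM, and 3 at 1.5-fold. Of 586 values of 54 single-gene ratios, 18 from 10 ratios had the other sign. Of these, 15 came from 8 ratios under 2-fold, mostly with intervals that include 0, but among them Tle3 in bulge-like over basal-like cells went from -0.58 to 0.11 with at least 1000 genes and 2000 UMIs. The other 3 were Tle2 in hair matrix-like over IRS-like cells, at -0.72 with clusters and -0.015 as a mean over cells, and Lef1 in bulge-like over basal-like cells, at -0.38 with clusters. The cause was not tested. With free RNA subtracted, PG SEB-like cells held no Tcf7l1, so that ratio had no value. No paired analysis was possible because each tissue had 1 library, and no library could be left out. Depth limits Tle2, Tcf7l1 and all skin SEB-like values most, since these rest on few UMIs.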
